A study of Drosophila melanogaster with 10 samples.

Results

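Ecdysteroids are the steroid hormones that time moulting and metamorphosis in insects, and the genes described here are those that make ecdysone, trigger its synthesis and break it down. The set was given as a list of 10 genes, nvd, spok, sro, phm, dib, sad, shd, Ptth, tor and Cyp18a1. Of these, 9 were matched to a row of the 17402 genes in the count table, and nvd was not analysed here. All 9 passed the minimum of 10 counts summed over the libraries. The measurements are mRNA-seq of polyadenylated RNA from whole female Drosophila melanogaster larvae in the third instar, in 10 libraries, made from 5 strains with 2 libraries each. The strains were labelled 51B (a null allele of AGO2), 51B/+ (the same allele over a wild-type chromosome), V966M (an AGO2 allele with a changed catalytic function), V966M/+ (the same over a wild-type chromosome) and w, the control. AGO2 encodes an Argonaute protein, the partner of small interfering RNAs. Neither the age of the larvae within the third instar nor the number of larvae in a library was given in the labels.

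In larvae, ecdysone is made from dietary sterol in the prothoracic gland, a part of the ring gland next to the brain. The neuropeptide Ptth, released by a few brain neurons, binds the receptor tyrosine kinase Torso (tor) on the gland and sets off a Ras and MAP kinase relay that raises synthesis. The enzymes are known as Halloween genes: nvd converts cholesterol in the opening step, spok (a cytochrome P450) and sro (a short-chain dehydrogenase) act in the poorly understood middle steps, and the P450 hydroxylases phm, dib and sad finish ecdysone. shd then converts ecdysone to the active hormone in peripheral tissues such as fat body and gut, and Cyp18a1 hydroxylates and so inactivates the active hormone in its target tissues. In these whole-larva libraries, fewer cells of the gland and less RNA in each of its cells cannot be told apart.

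The libraries held from 22337432 to 60886803 counts, and replicate 3 was the deeper library of each strain. A count of 0 allows up to 3 counts, which is between 0.0513 and 0.149 CPM (counts scaled to library size with TMM factors, as all CPM values here), and every member was above this in every library. The AGO2 gene went against some labels: it had 105 and 99.7 CPM in the libraries labelled 51B and 3.85 and 2.84 CPM in those labelled 51B/+, against 229 and 152 CPM in w. It had 236 and 163 CPM in the libraries labelled V966M and 249 and 194 CPM in those labelled V966M/+. The sample titles write the allele name in duplicate for the libraries whose strain is given as 51B/+ and V966M/+, so every direction below follows the strain labels as deposited. The library labelled 51B/+ replicate 3 stood apart by 14.5 CPM summed over 5 testis genes, against 0.337 to 1.70 CPM in the other 9 libraries. Mitochondrial genes took 5.57% to 16.5% of the counts. Pairs of values below give replicate 3 and then replicate 4.

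Per kilobase of exon, the members spanned a range of levels from sro to tor. The median over 10 libraries was 29.5 CPM per kilobase for sro (FBgn0262112, 3R, 29794597 to 29795805, plus strand, dm6) and 22.1 for shd (FBgn0003388, 3L, 14614458 to 14622205, plus strand). It was 13.8 for sad (FBgn0003312, 3R, 11877235 to 11879754, plus strand) and 12.1 for phm (FBgn0004959, X, 18685766 to 18688433, plus strand). These 4 enzymes of the middle and final steps were the most abundant members. spok (FBgn0086917, 3R, 3322810 to 3354486, plus strand) had a median of 4.76 CPM per kilobase and Cyp18a1 (FBgn0010383, X, 18688538 to 18693042, minus strand) one of 3.91.

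The 3 members at the low end were dib (FBgn0000449, 3L, 4062292 to 4064551, plus strand) at a median of 0.783 CPM per kilobase, Ptth (FBgn0013323, 2L, 575711 to 576896, minus strand) at 0.717 and tor (FBgn0003733, 2R, 7705183 to 7709184, minus strand) at 0.252. The order held in every library for shd over sad, phm over spok, Cyp18a1 over dib and Ptth over tor. sro was above shd in 9 of 10 libraries. The other neighbours in the order did not separate: sad was above phm in 7 of 10 libraries, spok above Cyp18a1 in 7 and dib above Ptth in 5.

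**Figure D1:**
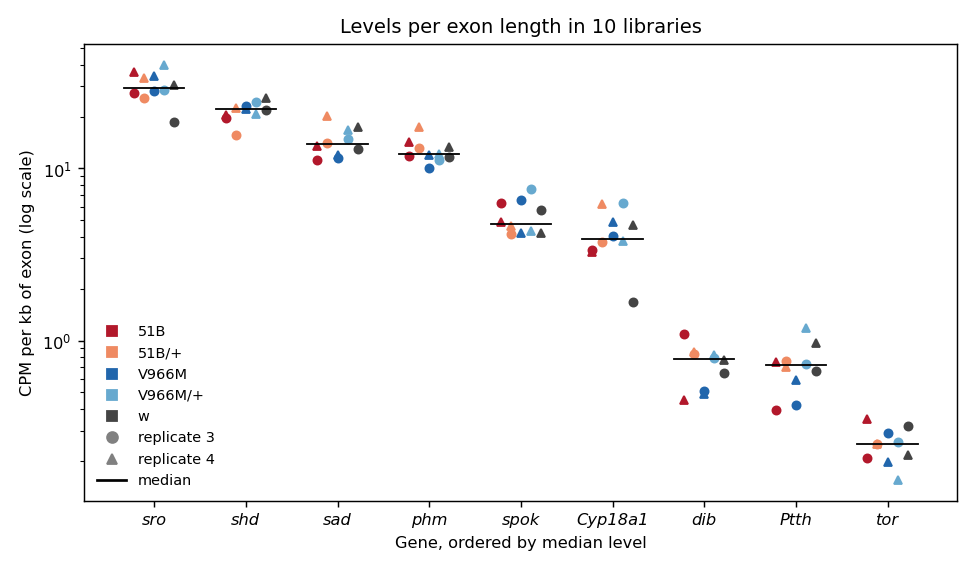
Levels of the 9 matched ecdysteroid genes, as CPM per kilobase of exon on a log axis, in 10 libraries coloured by labelled strain, with circles for replicate 3, triangles for replicate 4 and a line at the median. sro is highest with a median of 29.5 and tor lowest with 0.252. Ranges overlap between sro and shd, shd and sad, sad and phm, spok and Cyp18a1, and dib and Ptth.

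phm and sad, which encode hydroxylases of the same gland, had levels per kilobase close to each other. The level of phm per kilobase was between 0.732 and 1.05 times that of sad over the 10 libraries, with a median of 0.881. dib, the hydroxylase that acts between them, was far lower: phm was between 10.8 and 31.3 times dib per kilobase, with a median of 17.7. Both ends of that range were libraries labelled 51B, where dib had 73 counts in replicate 3 and 18 counts in replicate 4. Reads were counted over exons without regard to strand, and 400 of the 1975 exon bases of dib (20.3%) are shared with wit on the opposite strand. The share was 9.45% for sro (with Rnb), 2.99% for sad (with CG6962) and 2.13% for Ptth (with cold). Per kilobase of unshared exon, with the counts left whole, dib had a median of 0.981.

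Of the enzymes of the middle steps, spok had 11.2 and 8.65 CPM in the libraries labelled 51B, 7.40 and 8.18 in 51B/+, 11.6 and 7.43 in V966M, 13.5 and 7.70 in V966M/+, and 10.2 and 7.47 in w. The 5 replicate 4 libraries lay together, between 7.43 and 8.65 CPM, and the spread was among the replicate 3 libraries. spo, the paralogue of spok that acts in embryos, had at most 7 counts in any library. sro had 31.8 and 41.7 CPM in the libraries labelled 51B, 29.8 and 38.7 in 51B/+, 32.7 and 39.6 in V966M, 33.1 and 46.2 in V966M/+, and 21.5 and 35.1 in w. Replicate 4 was the higher sro library in each strain, w replicate 3 was the lowest of the 10 libraries, and each strain overlapped w.

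Of the hydroxylases, phm had 26.1 and 31.2 CPM in the libraries labelled 51B, 28.8 and 38.5 in 51B/+, 22.1 and 26.5 in V966M, 24.8 and 26.9 in V966M/+, and 25.6 and 29.5 in w. sad had 19.9 and 24.1 CPM in the libraries labelled 51B, 25.01 and 36.0 in 51B/+, 20.5 and 21.1 in V966M, 26.3 and 29.5 in V966M/+, and 23.0 and 31.0 in w. For both genes 51B/+ replicate 4 was the highest library. The libraries labelled V966M lay below both w libraries for sad and overlapped them for phm.

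dib had 2.16 and 0.895 CPM in the libraries labelled 51B, 1.64 and 1.71 in 51B/+, 1.01 and 0.973 in V966M, 1.57 and 1.64 in V966M/+, and 1.28 and 1.52 in w. The highest and the lowest dib library were thus the pair labelled 51B, and the other pairs were close. shd, which acts outside the gland, had 59.4 and 61.6 CPM in the libraries labelled 51B, 47.0 and 68.0 in 51B/+, 69.6 and 67.2 in V966M, 73.0 and 62.5 in V966M/+, and 66.4 and 77.4 in w. shd was the steadiest member, with 1.65-fold between its lowest library, 51B/+ replicate 3, and its highest, w replicate 4.

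The trigger genes were near the limit of what the depth can separate. Ptth had 0.444 and 0.845 CPM in the libraries labelled 51B, 0.854 and 0.788 in 51B/+, 0.479 and 0.664 in V966M, 0.830 and 1.33 in V966M/+, and 0.749 and 1.097 in w, from 15 to 44 counts a library. The libraries labelled V966M lay below both V966M/+ and both w libraries. tor had 0.651 and 1.09 CPM in the libraries labelled 51B, 0.789 and 0.788 in 51B/+, 0.906 and 0.619 in V966M, 0.808 and 0.485 in V966M/+, and 1.004 and 0.675 in w, from 14 to 55 counts. No pair of strains was set apart by tor among those compared. The chi-square per degree of freedom of its counts over the 10 libraries was 1.36, where 1 is what sampling alone gives on average, against 3.20 for Ptth, 3.59 for dib and 18.7 to 59.6 for the other members. The median of all genes tested was 12.1. At the same relative spread this value is larger for a gene with more counts, so it does not rank the members by steadiness.

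Cyp18a1, which clears the active hormone, was the most variable member. It had 10.3 and 9.94 CPM in the libraries labelled 51B, 11.4 and 18.9 in 51B/+, 12.3 and 15.0 in V966M, 19.2 and 11.6 in V966M/+, and 5.09 and 14.3 in w. The lowest library was w replicate 3 and the highest V966M/+ replicate 3, 3.77-fold apart, and every mutant strain overlapped w. Cyp18a1 and phm lie tail to tail on the X chromosome with 104 bases between them, and phm differed by only 1.74-fold over the same libraries.

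**Figure D2:**
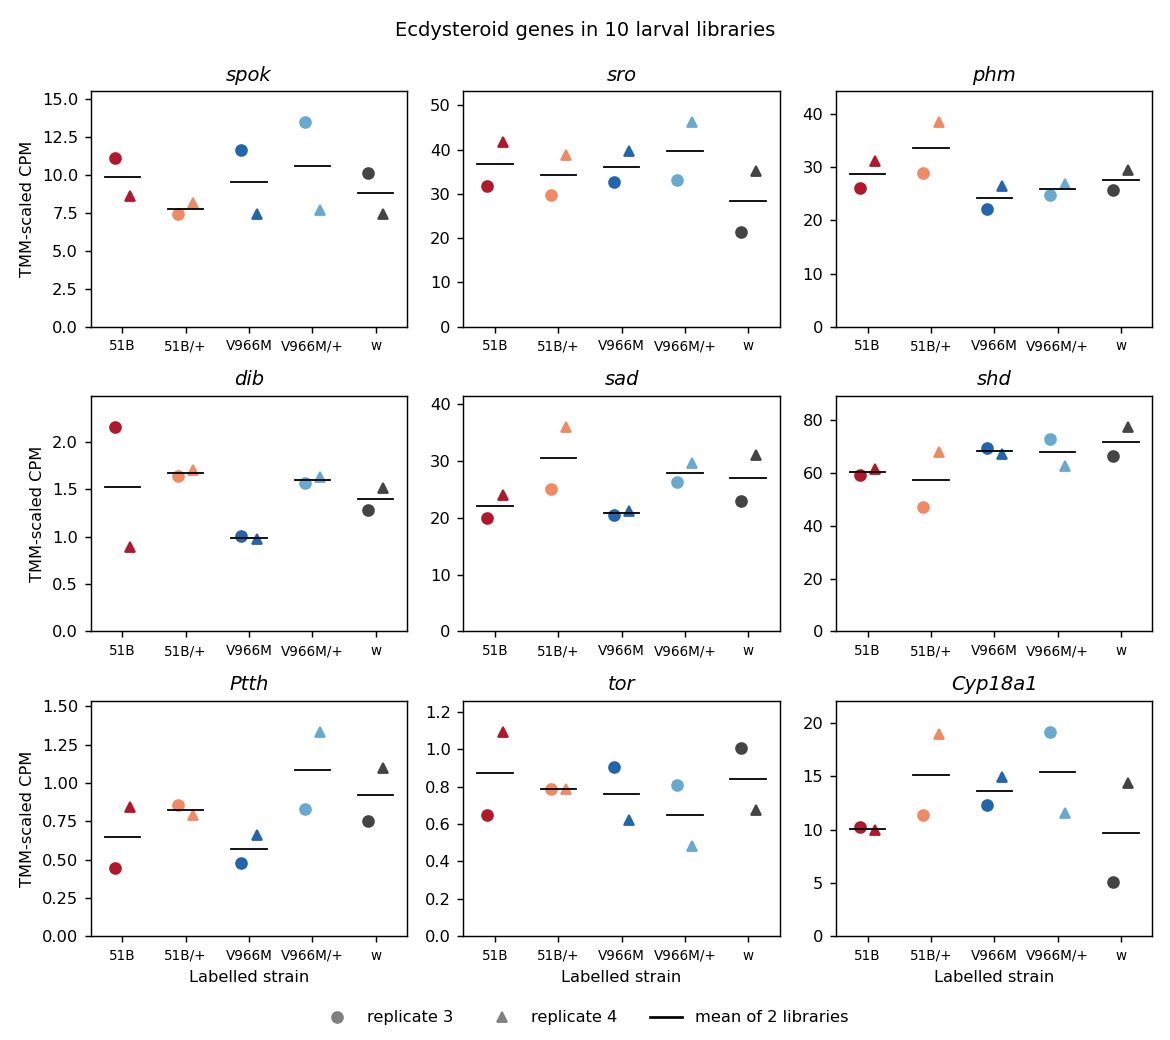
TMM-scaled CPM of each matched ecdysteroid gene in the 10 libraries, by labelled strain, with circles for replicate 3, triangles for replicate 4 and a line at the mean of the 2 libraries. Each axis starts at 0. The strains overlap for most genes, replicate 4 is the higher library in all 5 strains for sro, phm and sad, and the libraries of w differ most for Cyp18a1, with 5.09 and 14.3 CPM.

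Each mutant strain was then compared with w, to see whether hormone genes changed with the AGO2 allele. No member was called at an edgeR adjusted p under 0.1 in any of the 4 comparisons. The count was 0 of 9 in the labelled 51B, where 0.738% of the 13551 genes tested were called, and 0 of 9 in the labelled 51B/+, where 1.79% were called. It was 0 of 9 in the labelled V966M (0.125% of all genes) and 0 of 9 in the labelled V966M/+ (1.14%). At these shares, a count of 0 of 9 does not set the members apart from other genes. No member reached an unadjusted p under 0.05 either (0 of 9 in each comparison), and DESeq2 called 0 of 9 in each.

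The largest differences from w were in Cyp18a1 and Ptth. The log2 fold change of Cyp18a1 was 0.68 in the labelled V966M/+ (SE 0.46, 95% interval -0.37 to 1.73, edgeR adjusted p = 0.691), 0.65 in 51B/+ (SE 0.46), 0.50 in V966M (SE 0.46) and 0.07 in 51B (SE 0.46). These comparisons share the w libraries: without w replicate 3 the value in V966M/+ was 0.09, and without w replicate 4 it was 1.60. That of Ptth was -0.70 in the labelled V966M (SE 0.45, 95% interval -1.72 to 0.33, edgeR adjusted p = 1), -0.53 in 51B (SE 0.46), -0.14 in 51B/+ (SE 0.44) and 0.24 in V966M/+ (SE 0.44). For both genes the intervals include 0 and also changes of over 2-fold, so neither a change of that size nor its absence was shown.

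Intervals were narrower for sro, phm, shd, sad and spok than for Cyp18a1 and Ptth. The log2 fold change of sro was 0.49 in the labelled V966M/+ (SE 0.28, 95% interval -0.14 to 1.12, edgeR adjusted p = 0.608), 0.38 in 51B, 0.36 in V966M and 0.28 in 51B/+. That of phm lay between -0.19 in V966M and 0.29 in 51B/+ (SE 0.19 in each), with 95% intervals reaching -0.62 and 0.73. That of shd lay between -0.32 in 51B/+ (SE 0.20, 95% interval -0.78 to 0.13, edgeR adjusted p = 0.583) and -0.07 in V966M (SE 0.20). For sad it was -0.37 in V966M (SE 0.22, 95% interval -0.87 to 0.13), -0.30 in 51B (SE 0.22), 0.05 in V966M/+ and 0.18 in 51B/+. For spok it lay between -0.19 in 51B/+ and 0.26 in V966M/+ (SE 0.31 to 0.32), for tor between -0.38 in V966M/+ and 0.01 in 51B (SE 0.44 to 0.45), and for dib between -0.48 in V966M and 0.27 in 51B/+ (SE 0.38 to 0.39).

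Over the 9 members the median log2 fold change against w was 0.06 in the labelled 51B, 0.18 in the labelled 51B/+, -0.13 in the labelled V966M and 0.21 in the labelled V966M/+, beside -0.02, 0.02, -0.02 and 0.00 over all genes tested. Leaving out 1 library turned the sign of the first, the second and the last of these medians: it was -0.08 in 51B without 51B replicate 4, -0.11 in 51B/+ without 51B/+ replicate 4 and -0.03 in V966M/+ without w replicate 3. Both libraries of the strain lay outside both w libraries for 1 member in 51B (shd), 1 in 51B/+ (dib), 3 in V966M (dib, sad and Ptth) and 1 in V966M/+ (dib). The share of all genes tested that did so was 41.7%, 37.9%, 30.8% and 39.5% in the same order of strains.

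**Figure D3:**
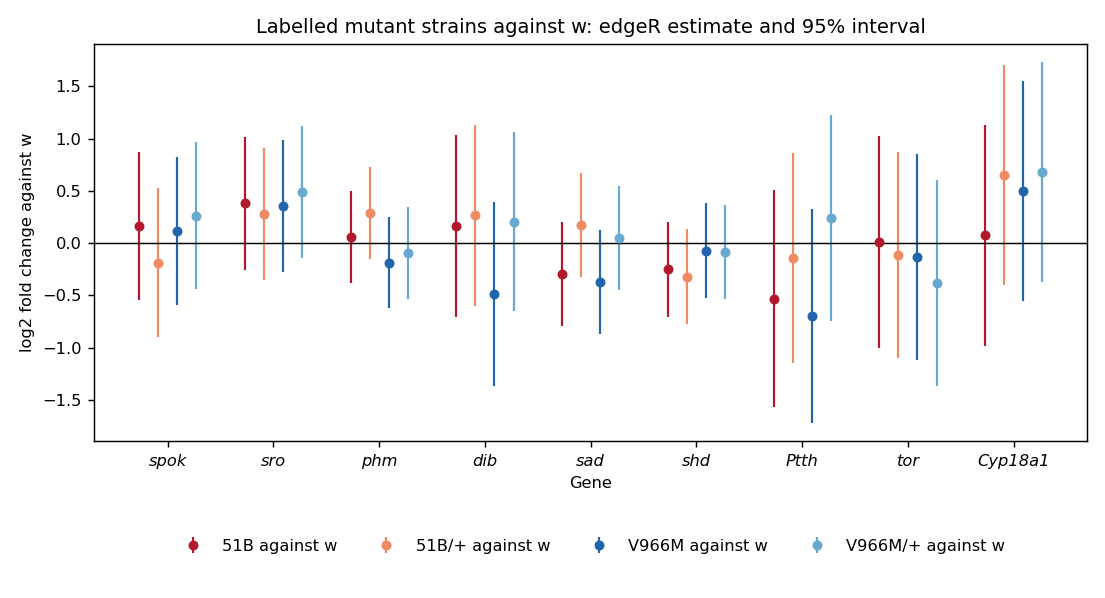
Log2 fold change against w of the 9 matched ecdysteroid genes in the 4 labelled mutant strains, as the edgeR estimate with its 95% interval. Every interval includes 0, and the widest belong to Ptth, tor and Cyp18a1.

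The strains carrying the same allele were compared next. No member was called between the labelled 51B and 51B/+ (0 of 9, with 0.0812% of all genes called), nor between the labelled V966M and V966M/+ (0 of 9, with 6.7% of all genes called). DESeq2 also called 0 of 9 in both, and 0 of 9 had an unadjusted edgeR p under 0.05. The lowest levels in V966M relative to V966M/+ were in Ptth, at 0.479 and 0.664 CPM in V966M and 0.830 and 1.33 CPM in V966M/+, which is -0.94 on the log2 scale (SE 0.45, 95% interval -1.95 to 0.08, edgeR adjusted p = 0.302). dib differed by -0.69 there on the same scale (SE 0.39, edgeR adjusted p = 0.378) and sad one of -0.42 (SE 0.22, edgeR adjusted p = 0.342). These 3 genes, in brain neurons and in the gland, were the 3 of 9 members whose V966M and V966M/+ libraries did not overlap, against 49.3% of all genes tested. Of the 12 larval tissue markers, 1 (vkg, higher in V966M) was called between these strains, beside the 6.7% of all genes. The 12 markers summed to 45200 and 41836 CPM in V966M and 39838 and 38235 CPM in V966M/+, and none was at 0. The markers not called lay in both directions. The muscle myosin gene Mhc had 4375 and 4600 CPM in V966M and 1781 and 301 CPM in V966M/+. The fat body gene Fbp1 averaged 14367 CPM in V966M and 22159 CPM in V966M/+. The fat body genes Lsp1alpha and Lsp2 lay the other way. Lsp1alpha averaged 16702 CPM in V966M and 5843 CPM in V966M/+, and Lsp2 averaged 1579 and 1266 CPM. The cuticle gene Cpr49Ac averaged 2219 and 4600 CPM in the same order. The part of these markers in the values of the members was not tested.

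Between the labelled 51B and 51B/+, sad differed by -0.47 on the log2 scale (SE 0.22, 95% interval -0.97 to 0.03, edgeR adjusted p = 0.791) and Cyp18a1 one of -0.58 (SE 0.46). spok was the member with the largest value in the other direction, 0.35 (SE 0.32). The pairs of sad, Cyp18a1 and spok did not overlap, which is 3 of 9 members against 34.9% of all genes tested. The median over the 9 members was -0.10 between 51B and 51B/+ and -0.15 between V966M and V966M/+, beside -0.03 and -0.02 over all genes tested.

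The strains labelled with the null allele were also compared with those labelled with the catalytic allele, since the study asked which changes need the presence of AGO2 and which its catalytic function. AGO2 had 3.85 and 2.84 CPM in the libraries labelled 51B/+ and 105 and 99.7 CPM in those labelled 51B. Neither comparison can therefore be read as null against catalytic homozygotes by the strain labels alone. No member was called between the labelled 51B and V966M (0 of 9, with 0.118% of all genes called) or between the labelled 51B/+ and V966M/+ (0 of 9, with 6.07% of all genes called), by edgeR or by DESeq2. The count at an unadjusted edgeR p under 0.05 was 0 of 9 in both. The largest value between 51B and V966M was in dib, 0.65 (SE 0.39, 95% interval -0.24 to 1.53, edgeR adjusted p = 0.899), where the 2 libraries labelled 51B lay on both sides of V966M. Between 51B/+ and V966M/+ it was in spok, -0.45 (SE 0.31, edgeR adjusted p = 0.462), followed by Ptth, -0.38 (SE 0.44, edgeR adjusted p = 0.669), and phm, 0.38 (SE 0.19, 95% interval -0.06 to 0.82, edgeR adjusted p = 0.318). phm had 28.8 and 38.5 CPM in 51B/+, above the 24.8 and 26.9 CPM in V966M/+. Libraries did not overlap for 2 of 9 members between 51B and V966M (shd and Cyp18a1) and for 2 of 9 between 51B/+ and V966M/+ (phm and dib), against 33.9% and 49.4% of all genes tested.

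Replicate 4 was then compared with replicate 3. This comparison was added after the values were seen, with strain and replicate number as terms of 1 edgeR fit over the 10 libraries, and the labels do not say what the number marks. Of all genes tested, 9.73% were called, and 1 of the 9 members, sro. At that share, a count of 1 of 9 does not set the members apart from other genes. sro had 41.7, 38.7, 39.6, 46.2 and 35.1 CPM in replicate 4 of 51B, 51B/+, V966M, V966M/+ and w, against 31.8, 29.8, 32.7, 33.1 and 21.5 CPM in replicate 3. It was higher in replicate 4 in 5 of 5 strains, by 0.45 on the log2 scale (SE 0.09, 95% interval 0.25 to 0.65, edgeR adjusted p = 0.0382), which is 1.36-fold. The call was lost without w, the strain with the largest difference, where fewer libraries were fitted. The log2 fold change was then 0.39 (edgeR adjusted p = 0.139). Without each other strain in turn sro stayed called (edgeR adjusted p from 0.0534 to 0.0964).

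phm and sad were likewise higher in replicate 4 in 5 of 5 strains. Their log2 fold changes were 0.25 (SE 0.08, edgeR adjusted p = 0.109) and 0.29 (SE 0.09, edgeR adjusted p = 0.116), not called here, and called by DESeq2 (adjusted p = 0.0789 and 0.0927) and by edgeR with filterByExpr as the filter (edgeR adjusted p = 0.0801 and 0.0965). spok lay the other way, lower in replicate 4 in 4 of 5 strains, by -0.43 on that scale (SE 0.14, edgeR adjusted p = 0.117), and it was called without the strain 51B/+ (edgeR adjusted p = 0.0487). The remaining members were not called: Ptth had 0.49 (SE 0.23) and was higher in 4 of 5 strains, and Cyp18a1, shd, dib and tor had 0.34, 0.11, -0.16 and -0.23. Of all genes tested, 10.4% were higher in replicate 4 in all 5 strains and 11.1% lower. Replicate 3 was also the deeper library of every strain, and depth and replicate number cannot be told apart. Some tissue markers moved with replicate number as well. Of the 12 larval tissue markers 3 were called, beside 9.73% of all genes tested, all lower in replicate 4 in 5 of 5 strains. The neuronal gene elav had -0.75 on the log2 scale (SE 0.13, edgeR adjusted p = 0.0313). The hemocyte gene Hml had -0.70 (SE 0.14, edgeR adjusted p = 0.0407) and the salivary glue gene Sgs3 had -0.49 (SE 0.13, edgeR adjusted p = 0.0718). The other neuronal marker, nSyb, was not called (-0.09, SE 0.09, edgeR adjusted p = 0.579). Nor were the gut markers Jon25Bi (0.51, SE 0.22) and Amy-p (0.65, SE 0.32), which lay the other way. The 12 markers summed to 34995 to 51537 CPM in replicate 4 and 38783 to 50611 CPM in replicate 3, and none was at 0. AGO2 was also lower in replicate 4 in 5 of 5 strains (-0.40, SE 0.10, edgeR adjusted p = 0.0761). elav, Hml, Sgs3 and AGO2 were not called without V966M (edgeR adjusted p from 0.101 to 0.213) and without w (from 0.126 to 0.234). Without V966M/+, Hml, Sgs3 and AGO2 were not called either (edgeR adjusted p = 0.108, 0.110 and 0.157). Sgs3 and AGO2 were also lost without 51B/+ (edgeR adjusted p = 0.112 and 0.126), and Sgs3 without 51B (0.154). The part of these 4 genes in the differences of sro, phm, sad and spok was not tested.

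**Figure D4:**
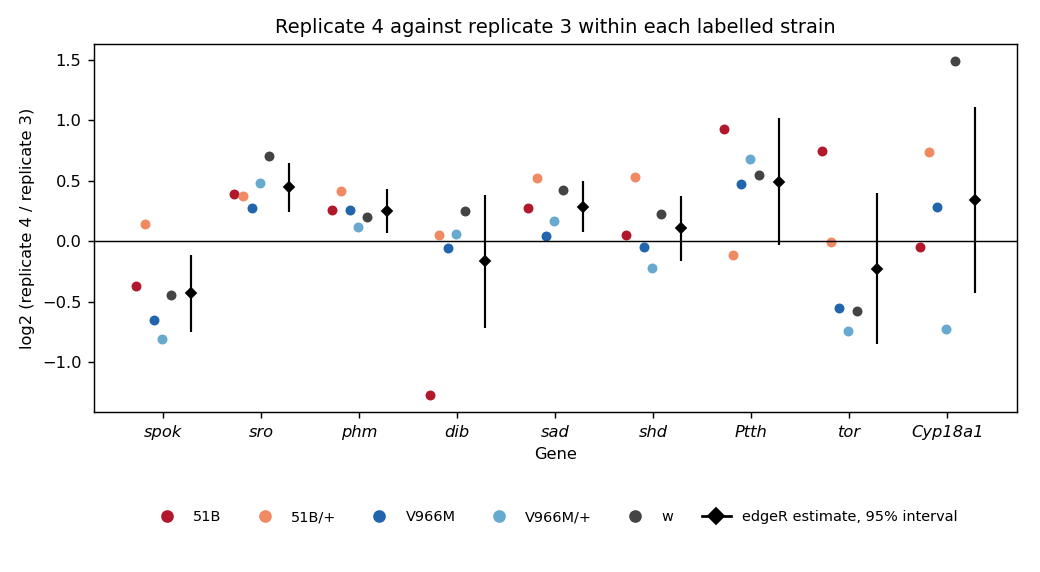
Log2 ratio of replicate 4 to replicate 3 of the matched ecdysteroid genes in each labelled strain (coloured points, from TMM-scaled CPM) and the edgeR estimate over the 5 strains with its 95% interval (black diamonds). All 5 points are above 0 for sro, phm and sad, 4 of 5 are below 0 for spok, and the 5 points of Cyp18a1 lie on both sides of 0.

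Other genes of the pathway were taken from 5 lists. None of them was called against w in any mutant strain: 0 of 10 in the relay from Torso to MAP kinase, 0 of 9 transcription regulators of the Halloween genes, 0 of 13 genes of sterol supply, electron transfer, secretion, uptake and oxidation, 0 of 11 tropic and checkpoint inputs to the gland, and 0 of 10 early response genes. Of all genes tested, 0.125% to 1.79% were called against w. The calls in these lists were between mutant strains. Cpr, the reductase that passes electrons to microsomal P450 enzymes, had 168 and 250 CPM in the labelled V966M and 116 and 109 CPM in V966M/+, a difference of 0.90 on the log2 scale (SE 0.25, edgeR adjusted p = 0.0897). It was the 1 of 13 genes of its list called there, where 6.7% of all genes tested were called.

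spi, an EGF receptor ligand, had 49.7 and 43.5 CPM in the labelled V966M and 77.1 and 77.5 CPM in V966M/+, a difference of -0.73 on the log2 scale (SE 0.17, edgeR adjusted p = 0.0607), the 1 of 11 tropic inputs called there. ftz-f1, a nuclear receptor needed for transcription of Halloween genes and itself a target late in the hormone response, had 12.9 and 11.3 CPM in the labelled 51B/+ and 7.06 and 4.97 CPM in V966M/+, a difference of 1.01 on the log2 scale (SE 0.23, edgeR adjusted p = 0.0613). Of all genes tested, 6.7% were called between V966M and V966M/+ and 6.07% between 51B/+ and V966M/+. No gene of these lists was called between 51B and 51B/+ or between 51B and V966M. The shares of all genes there were 0.0812% and 0.118%.

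The list of early response genes had a larger median range over the libraries than the 9 members. It holds genes that the active hormone induces through its receptor EcR, EcR itself, usp and the later target ftz-f1. Over the 10 libraries, the highest CPM was 1.65 to 3.77 times the lowest among the 9 members, with a median of 2.15. Among the enzymes that make the hormone, it was 1.65 (shd) to 2.41 (dib) times the lowest. The median over the 10 early response genes was 2.92, and over the 9637 genes that averaged 1 CPM or more and had no count of 0 it was 1.82. Hr4 differed by 15.5-fold, Hr3 by 14.1-fold and Eip78C by 14.0-fold, all nuclear receptors, and the transcription factor br by 4.46-fold. The other early response genes differed by 1.55-fold (usp) to 3.24-fold (Eip75B), less than the most variable member.

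Libraries of 1 strain could differ as widely as libraries of different strains. Hr4 had 13.7 and 9.34 CPM in the libraries labelled 51B, 14.3 and 64.5 in 51B/+, 54.3 and 6.64 in V966M, 103 and 54.2 in V966M/+, and 57.5 and 23.8 in w. Eip78C had 10.9 and 7.26 CPM in the libraries labelled 51B, 14.2 and 75.9 in 51B/+, 65.8 and 9.16 in V966M, 102 and 90.1 in V966M/+, and 98.3 and 37.2 in w. Both libraries labelled 51B, 51B/+ replicate 3 and V966M replicate 4 were the low ones for both genes. Neither gene was called against w in 51B, with log2 fold changes of -1.82 for Hr4 (SE 1.03, edgeR adjusted p = 0.586) and -2.89 for Eip78C (SE 1.06, edgeR adjusted p = 0.379). The summed level of the 10 early response genes ran from 621 CPM in V966M replicate 4 to 1951 CPM in V966M/+ replicate 3. In those 2 libraries, in that order, phm had 26.5 and 24.8 CPM and sro had 39.6 and 33.1 CPM. The other members were higher in V966M/+ replicate 3. There spok had 7.43 and 13.5 CPM, sad 21.1 and 26.3, dib 0.973 and 1.57, and shd 67.2 and 73.0. Cyp18a1 had 15.0 and 19.2 CPM, Ptth 0.664 and 0.830, and tor 0.619 and 0.808. The part of staging within the instar in these differences was not tested.

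**Figure D5:**
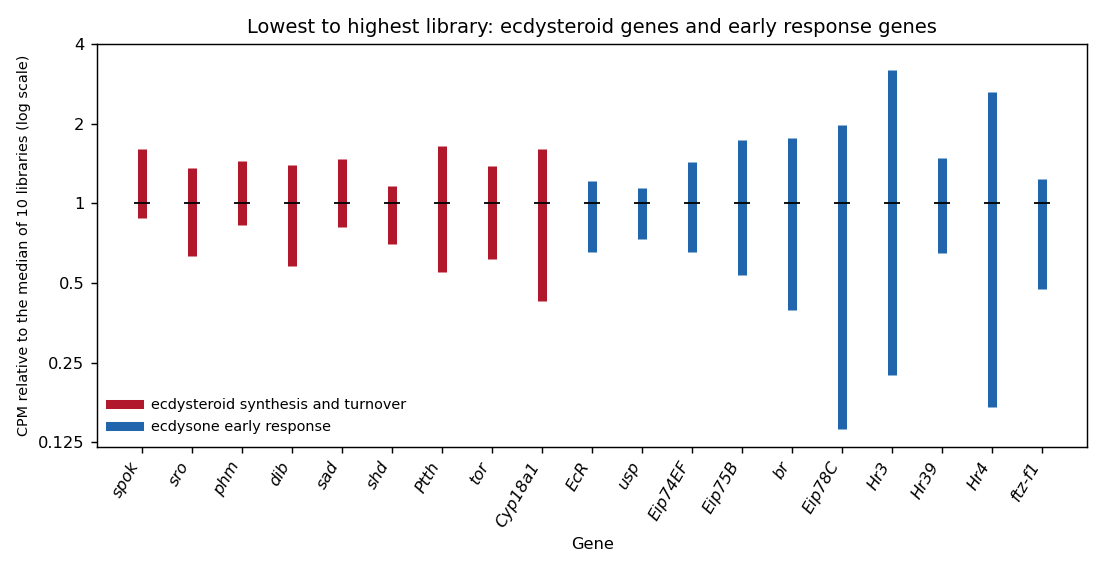
Lowest to highest TMM-scaled CPM over the 10 libraries, relative to the median of each gene and on a log axis, for the 9 matched ecdysteroid genes (red) and the 10 early response genes (blue). The red bars span 1.65-fold (shd) to 3.77-fold (Cyp18a1), and Eip78C, Hr3 and Hr4 span 14.0-fold to 15.5-fold.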

How the data were processed

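Single-end reads were trimmed by the authors (cutadapt 1.10), aligned to dm6 with HISAT2 2.0.4 and counted over exons of FlyBase genes with featureCounts 1.5.0-p3, without regard to strand. The deposited values are raw counts per gene, and all 10 columns belong to a labelled sample. Groups follow the strain labels. The series describes its 2 libraries a strain as biological replicates, but nothing names separate collections of larvae. The p-values therefore measure the spread between these libraries. Genes with at least 10 summed counts (13551) were tested in 1 fit of all libraries with TMM scaling and the quasi-likelihood test of edgeR 4.0.16 (R 4.3.3), two-sided, with an adjusted p (Benjamini-Hochberg) under 0.1 as the call. The self-test used simulated counts. Alternatives were DESeq2 1.42.0, RLE scaling, filterByExpr, no filter, a threshold of 0.05, 2 strains fitted alone, the replicate block and leaving out each library. Floors and chi-square values cover counting error only. Symbols, positions and exon lengths came from the Ensembl annotation of dm6, and phm was found through a RefSeq synonym. No sequence is printed. Every member was named; of the other lists, called genes and genes a result turns on were named. Members and lists were chosen with earlier results of these data known. The comparison of replicates was added after seeing the data.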

Additional observations from a re-analysis of the deposited data

How the results depend on the processing

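The count of ecdysteroid genes called in the 8 strain comparisons was 0 in every setting run: DESeq2, RLE scaling, no count filter, filterByExpr, a threshold of 0.05 on the adjusted p, the 2 strains fitted alone, the replicate block and without each library in turn. A count of 0 that stays 0 says little about the size of a change, since 2 libraries a strain left 95% intervals of up to about 1 on either side of a log2 fold change. The replicate numbers were not taken to pair the samples: the correlation of the replicate 3 minus replicate 4 differences across genes ran from 0.0397 to 0.421 over the 10 strain pairs. With the replicate block 0 of 9 members were called in each comparison. The median log2 fold change of the members between 51B and V966M was 0.08 and became -0.18 without 51B replicate 4, and the cause was not tested. Without 1 library or another, the median changed sign in 6 of the 8 comparisons: it ran from -0.08 to -0.03 in 51B against w, from -0.11 to 0.39 in 51B/+ against w, from -0.03 to 0.28 in V966M/+ against w, from -0.27 to 0.04 in 51B against 51B/+, from -0.18 to 0.21 in 51B against V966M and from -0.35 to 0.09 in 51B/+ against V966M/+. It stayed negative in V966M against w and in V966M against V966M/+.

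The number of members called between replicate 4 and replicate 3, 1 as reported, depended on the setting. It was 3 with filterByExpr and 3 with DESeq2 (sro, phm and sad in both), 2 without the strain 51B/+ (sro and spok) and 0 without the strain w, where fewer libraries were fitted. At 14 to 75 counts a library, depth limited Ptth, tor and dib most.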

Other observations

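The comparison of replicate 4 with replicate 3, added after seeing the data, also called genes of the pathway lists. Of the 13551 genes tested, 9.73% were called, 664 higher and 654 lower in replicate 4. In the relay from Torso to MAP kinase, rl, the MAP kinase itself, was lower in replicate 4 in 5 of 5 strains (log2 fold change -0.49, SE 0.10, edgeR adjusted p = 0.0438). csw, a phosphatase of the relay, had -0.43 (SE 0.13, edgeR adjusted p = 0.0982), and the scaffold gene ksr had 0.31 (SE 0.09, edgeR adjusted p = 0.0952). Npc1a, which moves sterol out of endosomes, was lower (-0.44, SE 0.10, edgeR adjusted p = 0.0514), and ecd, needed for splicing of spok transcripts, was higher (0.30, SE 0.08, edgeR adjusted p = 0.0794). Of the 11 tropic inputs 4 were lower: jeb, the Alk ligand (-0.94, SE 0.15, edgeR adjusted p = 0.0282), InR (-0.52, SE 0.12), vn (-0.52, SE 0.14) and Smox (-0.48, SE 0.13). Of the 10 early response genes 1 was lower, br (-0.71, SE 0.17, lower in 5 of 5 strains, edgeR adjusted p = 0.0616), and of the 5 testis genes 1, blanks (-1.14, SE 0.27, edgeR adjusted p = 0.0585). jeb was called whichever strain was left out (edgeR adjusted p from 0.046 to 0.0994). ksr and ecd were not called without any 1 of the strains (edgeR adjusted p from 0.146 to 0.185 and from 0.126 to 0.194). Without V966M, and likewise without w, rl, csw, Npc1a, InR, vn, Smox, br and blanks were not called. Without V966M/+, rl, csw, Npc1a, vn, Smox and br were not called either. Also lost were rl, Npc1a and br without 51B, and blanks without 51B/+.

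Among the tissue markers, vkg, a basement membrane collagen, was called in the labelled 51B/+ against w, with 518 and 443 CPM in 51B/+ and 222 and 205 CPM in w (log2 fold change 1.17, edgeR adjusted p = 0.0639). It was also called in V966M against V966M/+ (1.25, edgeR adjusted p = 0.0404) and in 51B/+ against V966M/+ (1.72, edgeR adjusted p = 0.0142). The 5 markers of other endocrine cells summed to 4.11 to 8.18 CPM per library. Against w 0 of 5 were called in any strain, beside 0.125% to 1.79% of all genes tested.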
